A study of Homo sapiens with 4 samples.

Results

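The transcriptome of OMM2.3 cells given DHA was compared with that of control cells, with 1 RNA sequencing library for each. OMM2.3 is an established human uveal melanoma line that was derived from a liver metastasis. These are 2 of the 4 libraries of the study, and the others came from cells given CCCP, a protonophore that collapses the mitochondrial membrane potential, and from cells given CCCP and DHA together. All 4 groups used the same line grown with 10% fetal bovine serum. What DHA stands for is not written out in the labels. Its dose, the time of exposure and what the control cells received are likewise not given. Of 58735 annotated genes, 12774 had at least 1 FPKM (sequenced fragments per kilobase of exon, at a common library size) in the control or the DHA library and entered the comparison. Each gene has a log2 ratio of FPKM + 0.5, DHA over control. The added 0.5 draws ratios of low genes toward 0, so folds are given separately as plain FPKM ratios.

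No group had a replicate, so the spread between cultures is unknown and no test was made. Each fold is followed in brackets by its exact 95% binomial interval, which covers counting error only. Over the 10642 protein-coding genes compared, 20.4% had an interval above 1 and 19.9% one below 1. Counts of intervals within lists stand against these shares. Reads recovered from the deposited values numbered 18937286 in control and 17347602 with DHA, and protein-coding genes held 97.7 and 97.5% of them. Mitochondrial transcripts held 4.80 and 5.18% of reads. In RNA from whole cultures, fewer cells of a type and less RNA per cell cannot be told apart. Most defining markers of the melanocyte lineage were near 0 in both libraries. Of 22 genes on that list, 14 stayed under 1 FPKM, among them the pigment enzyme gene TYR with 0 reads in both, MLANA at 0.217 and 0.132 FPKM and SOX10 at 0.0692 and 0.0156 FPKM. The 8 others included MITF, the regulator of that lineage, at 8.81 FPKM in control and 7.35 with DHA, and GPNMB at 34.9 and 27.5 FPKM. Their median log2 ratio was -0.11, or -0.07 over 7 genes without the cell cycle kinase gene CDK2. Epithelial markers were mixed. Of 10 on that list, 6 stayed under 1 FPKM, among them EPCAM with 0 reads in both libraries and CDH1 at 0.183 and 0.103 FPKM. The 4 others included the keratin KRT8, at 195 and 179 FPKM.

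Many of the genes named here belong to the integrated stress response. In this pathway kinases that sense stress phosphorylate the translation initiation factor eIF2, which slows protein synthesis as a whole while the mRNA of the transcription factor ATF4 is translated more. ATF4 pairs with C/EBP proteins such as CEBPG, binds composite C/EBP-ATF elements, and drives genes for amino acid synthesis and uptake, tRNA charging, glutathione supply and feedback control of the response.

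Composite elements of this type are often written TGATGNAA, and the letters were looked up on both strands of RefSeq promoter windows (GRCh38.p14, from 250 bases before to 50 after the start site). Of the 25 protein-coding genes with the highest log2 ratios at a mean of at least 5 FPKM, 20 had a window. The letters occurred in 6 of these 20 windows (30%), those of KRT34, SLC3A2, CEBPG, AARS, MARS and GARS, against 4.46% of 27305 genes and 2.52% of 8811 protein-coding genes of the comparison. The 4 matches that lie wholly upstream of the start site are printed because they show the letters in genes with some of the highest ratios. Each line reads 5′ to 3′ on the strand of the gene, with the matched letters in capitals.
CEBPG (chr19:33374041-33374108, plus strand): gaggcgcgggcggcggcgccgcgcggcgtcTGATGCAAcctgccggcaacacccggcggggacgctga
AARS (chr16:70289656-70289723, minus strand): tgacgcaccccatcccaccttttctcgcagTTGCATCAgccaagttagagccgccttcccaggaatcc
GARS (chr7:30594815-30594877, plus strand): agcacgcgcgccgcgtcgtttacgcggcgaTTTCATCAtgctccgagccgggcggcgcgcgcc
KRT34 (chr17:41382493-41382556, minus strand): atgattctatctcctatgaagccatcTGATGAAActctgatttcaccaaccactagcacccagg
The CEBPG and KRT34 matches read on the gene's own strand and begin 42 and 224 bases before the start site. Those of AARS and GARS, at 187 and 33 bases, read on the opposite strand. The palindromic cyclic AMP response element TGACGTCA occurred in 0 of the 20 windows, against 4.03% of the 8811 genes. The antioxidant response element core TGACNNNGC occurred in 6 of the 20 (SLC7A5, TRIB3, SLC3A2, WARS, MTHFD2 and GARS), against 19.1%. The patterns can overlap at their edges, and such overlaps were not removed. A match describes letters in these windows and does not show binding.

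Few protein-coding genes differed by as much as 2-fold. Of 10642 in the comparison, 38 (0.357%) were at least 2-fold higher with DHA and 8 (0.0752%) at least 2-fold lower, and all 46 had a counting interval that excluded 1. With both libraries scaled to equal FPKM totals, the counts were 29 and 11. This scaling lowered ratios in general and put the median of all genes below 0, at the value given under processing. A list median that turned below 0 under it therefore did not by that alone fall below other genes. Over the 10520 protein-coding genes with at least 100 reads in the pair, the log2 ratio had a median of 0.00, and the 1st and 99th percentiles were -0.55 and 0.60. Counting all gene types, 234 of 12774 genes (1.83%) were higher and 210 (1.64%) lower. The 2132 genes that do not code for protein supplied 196 and 202 of these, with a median of only 6 reads per called gene. Among them 16 higher genes and 0 lower ones had at least 100 reads.

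**Figure D1:**
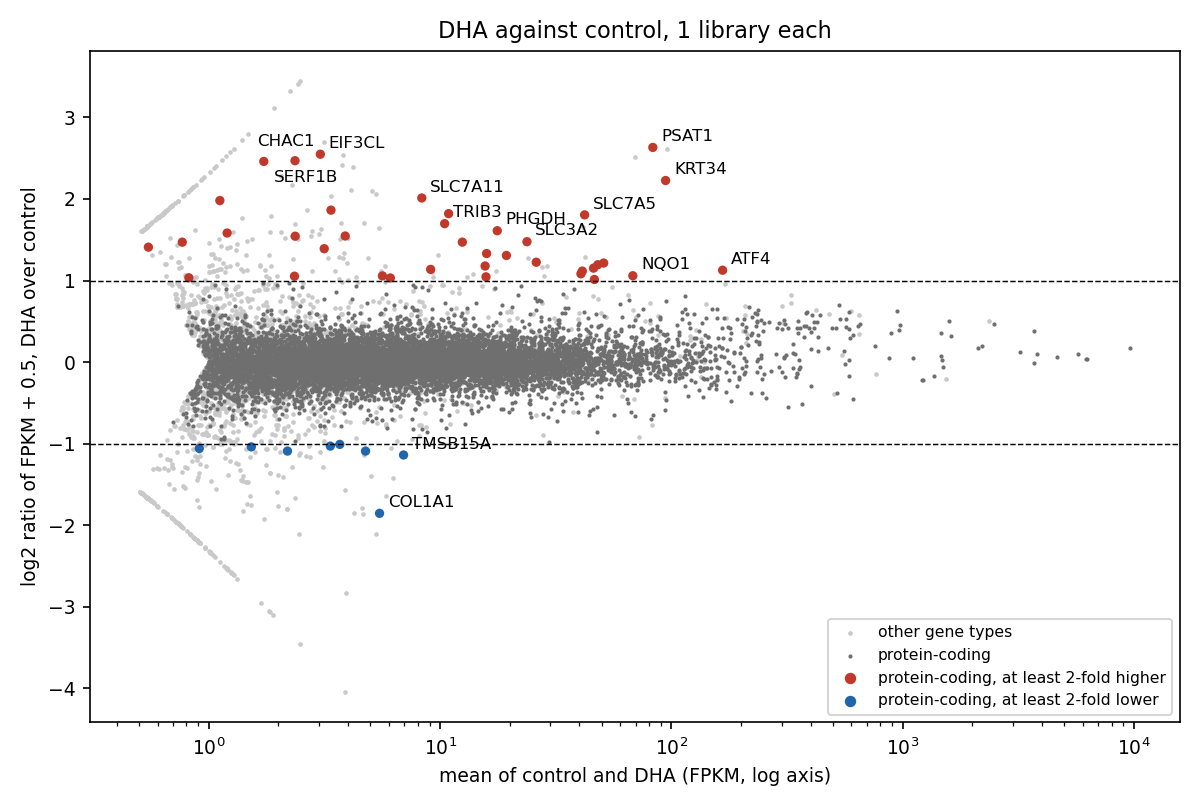
Log2 ratio of FPKM + 0.5, DHA over control (vertical axis), against the mean FPKM of both libraries on a log axis, with 1 point per gene. Of the protein-coding genes, 38 (red) lie at or above a log2 ratio of 1 and 8 (blue) at or below -1, and most calls among other gene types (light grey) sit at the low end of the level axis.

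The 38 higher protein-coding genes were mostly genes of amino acid supply and of the ATF4 response. Of them, 25 stood on 9 lists covering serine and one-carbon enzymes, other amino acid enzymes, transsulfuration and glutathione, amino acid transporters, cytosolic tRNA synthetases, stress transcription factors, mTORC1 brakes, secreted stress factors, and mitochondrial chaperones and proteases. Those lists held 125 genes of the comparison, so that 25 of 125 were called, against 0.357% of all protein-coding genes. The lists were chosen with earlier results of these data known, so this count is a description only. On the last list the called gene was PCK2, a metabolic enzyme. Another 4 of the 38 were keratin or keratin-associated genes, and NQO1 stood on the list of NRF2 targets.

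ATF4 mRNA itself (ENSG00000128272, chromosome 22, 39519695 to 39522685, GRCh38) was at 104 FPKM in control and 229 with DHA, a fold of 2.19 (2.12 to 2.26). In the CCCP and combination libraries it was at 129 and 342 FPKM. The libraries given DHA were thus the higher of each pair. TRIB3, a pseudokinase that feeds back on ATF4, went from 4.67 to 16.3 FPKM, a fold of 3.48 (3.06 to 3.97). NUPR1, a small stress-induced chromatin protein, was 2.91-fold (2.67 to 3.18) higher, and CEBPG, a dimer partner of ATF4, 2.54-fold (2.35 to 2.75) higher. DDIT3, which encodes the proapoptotic factor CHOP, was at 5.50 and 12.7 FPKM, 2.31-fold (1.88 to 2.85) higher. Its 3′ end overlaps that of MARS on the other strand of chromosome 12, and reads in the overlap cannot be assigned by a kit that does not mark strand.

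Of the 13 stress transcription factor and feedback genes in the comparison, 12 lay above control, 6 of them at least 2-fold, and the list's median log2 ratio was 0.97 against 0.00 over all genes. Across all protein-coding genes 50.6% lay above control and 49.4% below. ATF3, an early stress factor, stood just outside the 2-fold rule at a log2 ratio of 0.97. PPP1R15A, the stress-inducible phosphatase subunit that reverses eIF2 phosphorylation, was 1.52-fold (1.43 to 1.62) higher, while its constitutive counterpart PPP1R15B had a fold of 1.05 (0.969 to 1.14). ATF5, another bZIP factor of the response, had a fold of 1.03 (0.874 to 1.20). The higher level was therefore not shared by every factor on the list. A list of eIF2 kinases and eIF2B subunits that also holds eIF2 itself had a median of -0.03 over 14 genes. Of these, 6 lay above control and 0 were called in either direction. EIF2S2, the beta subunit of eIF2, led the list at 1.65-fold (1.56 to 1.74).

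Serine synthesis held the protein-coding gene with the highest log2 ratio. PSAT1, the aminotransferase of the pathway (ENSG00000135069, chromosome 9, 78297143 to 78330093), was at 22.7 FPKM in control, 144 with DHA, 29.3 with CCCP and 209 with both, and its fold with DHA was 6.31 (5.90 to 6.77). PHGDH, the first enzyme, went from 8.46 to 26.9 FPKM, a fold of 3.18 (2.99 to 3.37), and PSPH, the last, from 4.06 to 7.61 FPKM, a fold of 1.88 (1.58 to 2.23). All 3 steps from the glycolytic intermediate to serine thus lay higher. The mitochondrial folate enzymes SHMT2 and MTHFD2 were 2.19-fold (2.08 to 2.30) and 2.38-fold (2.24 to 2.53) higher, and MTHFD1L 1.47-fold (1.36 to 1.59) higher. Their cytosolic counterparts did not lie higher: SHMT1 had a fold of 0.944 (0.866 to 1.03) and MTHFD1 0.910 (0.859 to 0.965). TYMS, which uses folate to make thymidylate, had a fold of 0.855 (0.777 to 0.939). The 13 genes of this list therefore split, 6 above control and 7 below, with 4 at least 2-fold higher and a median of -0.08.

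Other amino acid enzymes in the comparison differed less than 2-fold. ASNS, which makes asparagine, lay under 1 FPKM in both libraries and so did not enter it, but its reads numbered 5 in control and 64 with DHA, a fold of 14.5 (5.88 to 46.0). GPT2, the mitochondrial alanine aminotransferase, was 1.97-fold (1.79 to 2.17) higher, and PYCR1, which completes proline synthesis, 1.72-fold (1.59 to 1.85) higher. The 13 genes of the list that entered had a median of -0.06.

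Cystine uptake and glutathione genes included 3 of the largest differences. CHAC1, which degrades glutathione (chromosome 15, 40952962 to 40956519), rested on 15 reads in control and 154 with DHA, a fold of 11.6 (6.82 to 21.2). SLC7A11, the cystine antiporter, was at 3.01 and 13.7 FPKM, a fold of 4.54 (4.14 to 4.99). CTH, which releases cysteine from cystathionine, was at 1.17 and 5.58 FPKM, a fold of 4.76 (3.54 to 6.52). These genes bring in or make cysteine, or break down glutathione. The glutathione synthesis genes GCLC and GCLM had folds of 1.05 (0.919 to 1.19) and 1.11 (0.980 to 1.26), and the peroxidase gene GPX4 a fold of 1.00 (0.952 to 1.05). CBS, the enzyme before CTH, had a fold of 2.14 (1.80 to 2.56) but a log2 ratio of 0.89. Its near-identical copy CBSL had 131 and 145 reads, so the division of reads between the copies is uncertain.

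Amino acid transporters were led by exchangers of the plasma membrane. Besides SLC7A11, the transporters at least 2-fold higher were SLC7A5, the large neutral amino acid transporter, its heavy chain partner SLC3A2, and the alanine, serine and cysteine transporter SLC1A4. SLC7A5 was at 18.5 FPKM in control and 65.8 with DHA, a fold of 3.56 (3.37 to 3.76). SLC3A2, which pairs with both SLC7A5 and SLC7A11, was 2.85-fold (2.67 to 3.05) higher, and SLC1A4 3.91-fold (3.21 to 4.79). SLC1A5, a glutamine carrier, was 1.53-fold (1.44 to 1.63) higher. SLC6A6, the taurine transporter, and SLC1A1, a glutamate carrier, lay lower, with folds of 0.694 (0.634 to 0.758) and 0.720 (0.610 to 0.849). The 16 transporters in the comparison had a median of 0.22, 10 above control.

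**Figure D2:**
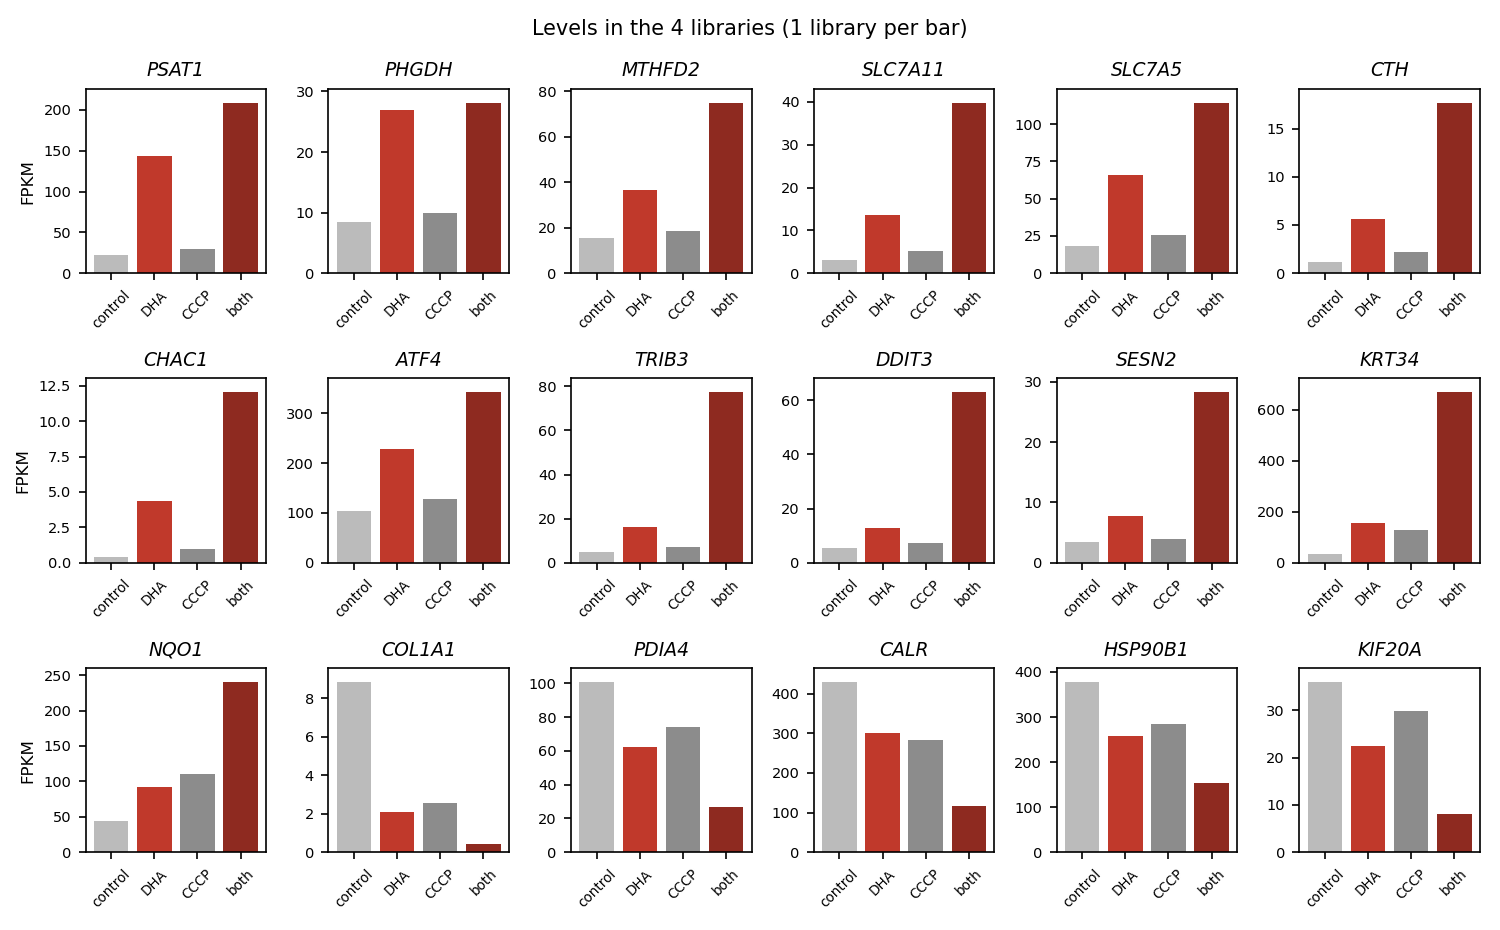
FPKM in the 4 libraries for 18 genes named in the text, 1 bar per library, each panel on its own linear axis from 0. In the first 13 panels, from PSAT1 to NQO1, both libraries given DHA stand above their partner without it, and in the last 5, from COL1A1 to KIF20A, both stand below.

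Cytosolic tRNA synthetases, which load amino acids onto tRNAs for the ribosome, lay higher as a group, and their mitochondrial counterparts did not. Of 20 cytosolic enzymes, 17 lay above control, 6 of them at least 2-fold, with a median log2 ratio of 0.50. The counting interval lay above 1 for 16 and below 1 for 1, RARS, against 20.4% and 19.9% of all protein-coding genes. WARS was the highest, at 8.82 FPKM in control and 23.0 with DHA, a fold of 2.60 (2.42 to 2.80). AARS, MARS, SARS, GARS and YARS had folds between 2.12 and 2.34, and CARS stood just under the rule at a log2 ratio of 0.95. HARS, DARS and RARS had folds of 0.986, 0.973 and 0.927, so the enzymes ranged widely. The 16 mitochondrial enzymes had a median of 0.03, 0 at 2-fold and 2 intervals above 1, those of FARS2 and VARS2. With both libraries scaled to equal FPKM totals this median was -0.06 and that of the cytosolic enzymes kept its sign. The difference between the 2 lists was not tested.

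**Figure D3:**
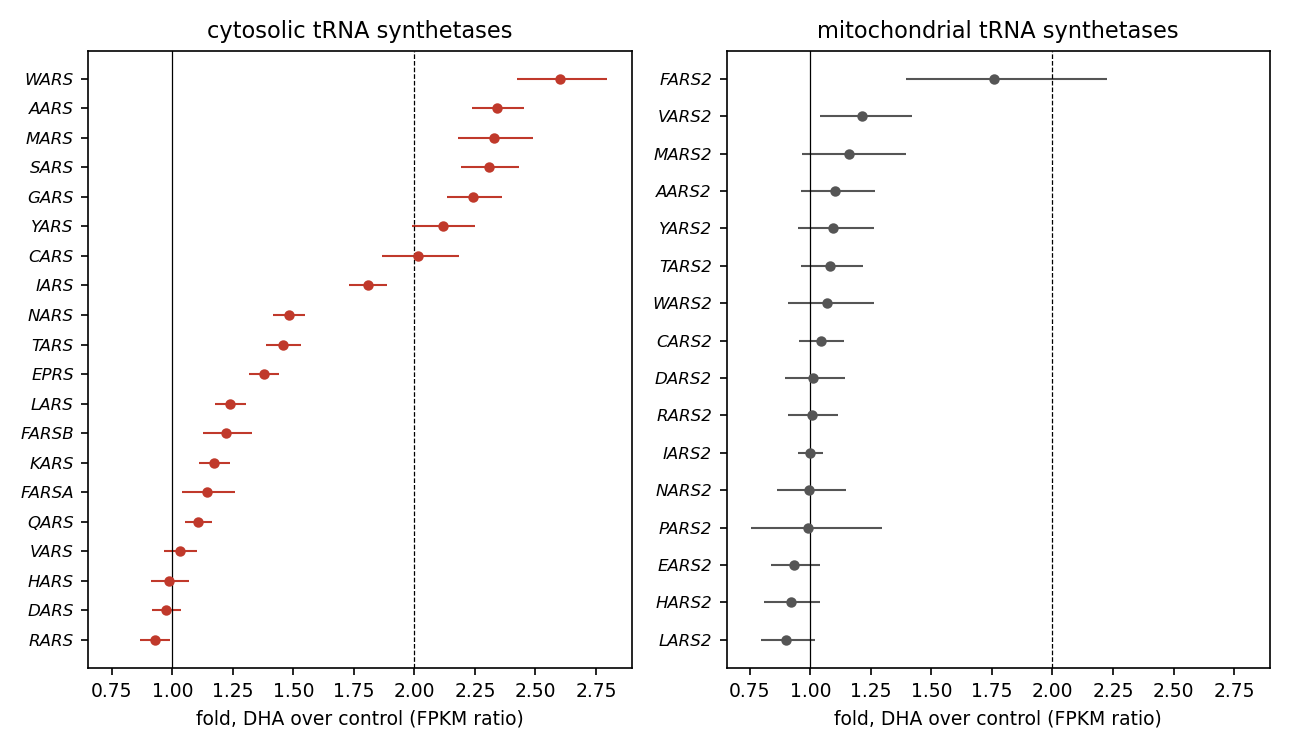
Fold with DHA over control (FPKM ratio) for 20 cytosolic (left) and 16 mitochondrial (right) tRNA synthetase genes, with 95% exact intervals for counting error alone; the dashed line marks 2-fold. Cytosolic enzymes run from 0.927 to 2.60, while of the mitochondrial enzymes FARS2, at 1.76, stands apart from the rest.

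Among feedback genes that lower mTORC1 signalling, SESN2, a leucine sensor, was at 3.48 FPKM in control and 7.78 with DHA, a fold of 2.24 (1.91 to 2.63). EIF4EBP1, a translation repressor that mTORC1 inactivates, and DDIT4, an activator of the TSC complex, were 1.69-fold (1.58 to 1.80) and 1.54-fold (1.44 to 1.66) higher. The other 10 of the 13 genes on this list had log2 ratios of at most 0.07, and the list's median was -0.06. Of secreted stress factors, INHBE, an activin subunit gene, rested on 9 and 108 reads, a fold of 13.6 (6.88 to 30.4). STC2, a secreted glycoprotein, was 1.97-fold (1.79 to 2.18) higher, and VEGFA, the angiogenic factor, 1.47-fold (1.40 to 1.55). GDF15, the stress cytokine often read as a marker of this response, stayed under 1 FPKM, and FGF21 had 0 reads in both libraries.

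Of 14 genes on the list of mitochondrial chaperones and proteases, 11 lay above control, with a median of 0.15. Intervals lay above 1 for 10 and below 1 for 2. The only member at 2-fold was PCK2, which is neither a chaperone nor a protease. PCK2, the mitochondrial enzyme that makes phosphoenolpyruvate and a known ATF4 target, was at 4.53 and 17.2 FPKM, a fold of 3.81 (3.39 to 4.29). The chaperone gene HSPA9 and the protease gene LONP1 were both 1.33-fold higher (1.29 to 1.38 and 1.26 to 1.40). HSPE1, the mitochondrial co-chaperonin, had a fold of 0.812 (0.733 to 0.901). The 13 mitochondrially encoded mRNAs all lay above control, by a log2 ratio of 0.02 to 0.35, with a median of 0.10 that was -0.00 when both libraries were scaled to equal FPKM totals. The median of 21 mitophagy genes was 0.03, which turned to -0.07 under equal totals, and 0 of them passed 2-fold. Equal totals also put the median of all genes below 0. PINK1, the kinase that marks depolarized mitochondria, was at 8.39 and 6.76 FPKM, a fold of 0.805 (0.721 to 0.898).

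Chaperone and folding genes of the endoplasmic reticulum did not lie higher with DHA as a group. Of 20 genes on this list, 15 lay below control and the median log2 ratio was -0.26. Stress signalling from this compartment was not tested. The interval lay below 1 for 13 and above 1 for 2. HSPA5, which encodes BiP, the main chaperone of the compartment, was at 279 FPKM in control and 214 with DHA. HSP90B1 and CALR, chaperones that bind calcium, went from 379 to 259 FPKM and from 430 to 302 FPKM. PDIA4, a disulfide isomerase, was the lowest of the list, 1.62-fold (1.56 to 1.69) lower. The 2 genes with intervals above 1 were XBP1, the transcription factor of the IRE1 branch, at 1.22-fold (1.13 to 1.31), and HERPUD1, a degradation factor, at 1.26-fold (1.18 to 1.35). EIF2AK3, which encodes the eIF2 kinase PERK of this compartment, had a fold of 0.854 (0.748 to 0.973).

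NRF2 targets, the antioxidant genes, had a median of 0.23 over 21 genes, 17 above control. NQO1, a quinone reductase, was at 44.0 and 92.2 FPKM, a fold of 2.10 (lower bound 2.0, upper bound 2.19), and TXNRD1, thioredoxin reductase, at 167 and 268 FPKM, a fold of 1.60 (1.58 to 1.63). SLC7A11, which is also an ATF4 target, was the only other member at 2-fold. HMOX1, the inducible heme oxygenase, lay lower at 8.08 and 5.31 FPKM, a fold of 0.657 (0.554 to 0.778), and SRXN1, sulfiredoxin, had an interval that included 1 (0.547 to 1.06). The list was thus mixed. Iron and heme genes had a median of -0.02 over 25 genes. Among them FTL, the ferritin light chain, was 1.30-fold (1.29 to 1.32) higher, FTH1, the heavy chain, 1.23-fold (1.18 to 1.27), and TFRC, the transferrin receptor, had a fold of 0.879 (0.842 to 0.917).

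**Figure D4:**
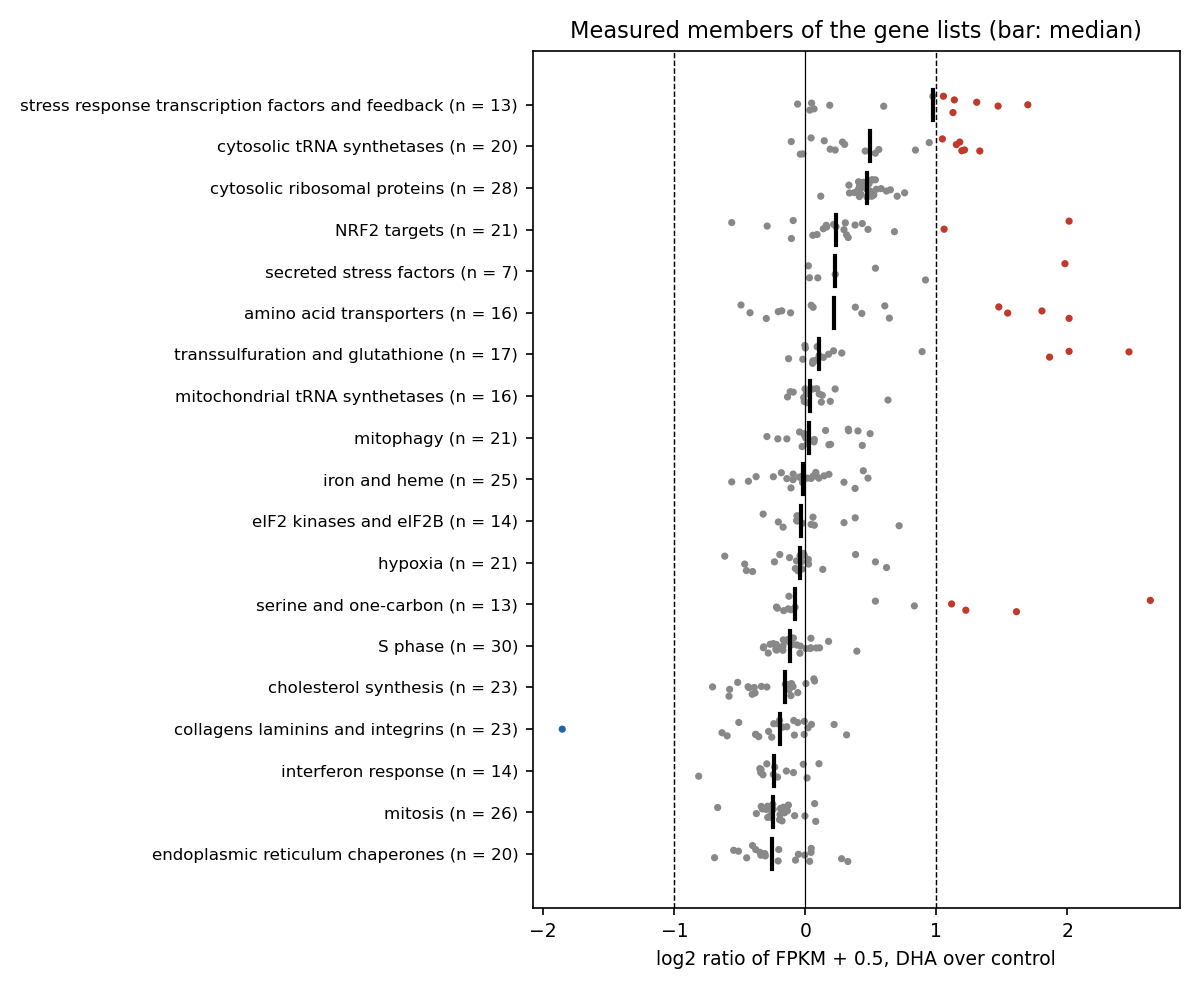
Log2 ratio of FPKM + 0.5, DHA over control, for the measured members of 19 gene lists, with 1 point per gene and a bar at each list's median; dashed lines mark 2-fold. The stress transcription factors have the highest of these medians, 0.97, and the endoplasmic reticulum chaperones the lowest, -0.26, while serine and one-carbon genes spread from -0.22 to 2.63 around a median of -0.08.

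Cytosolic ribosomal protein genes formed a broad, modest difference in the direction of DHA. Of the 28 on the list, all 28 had an interval above 1, and the median log2 ratio was 0.47. A wider set of every ribosomal protein gene by name, chosen after the values were seen, gave 79 of 82 above control with a median of 0.44. Of these, 14 were at least 1.5-fold higher, against 1.2% of all protein-coding genes, and 0 reached 2-fold. RPL37 was at 48.8 and 82.9 FPKM, RPS18 at 461 and 709 FPKM, and RPS6 at 353 and 527 FPKM, while RPL22 had the smallest difference of the 28, 41.3 and 44.9 FPKM. RPL37 had 7749 and 11645 reads, and its FPKM is lower for a summed exon length of 8153 bases. These FPKM values therefore do not rank the genes by expression. The median was 0.35 with both libraries scaled to equal totals and 0.43 with the trend on exon length removed. Other protein-coding genes in the middle 50% of their summed exon lengths, and at least at their lower-quartile mean level, numbered 83. These had a median of -0.00, with 41 above control. Exons were summed over all annotated transcripts and level had no upper limit, so mRNA length and level were not closely matched. EEF2 and EEF1A1, the elongation factors, went from 738 to 1144 FPKM and from 2081 to 2870 FPKM. Ribosomal proteins of the mitochondrion had a median of 0.10 over 76 genes, with 60 above control. Reads of ribosomal proteins are easily shared with their many processed pseudogenes, 86 of which entered the comparison with a median of 0.46, so the division between gene and copy is uncertain.

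Keratin genes differed among themselves, the hair keratins included. KRT34, a hair keratin (chromosome 17, 41377650 to 41382403), was at 32.9 FPKM in control, 156 with DHA, 130 with CCCP and 669 with both, a fold with DHA of 4.74 (4.44 to 5.06). KRT31, its neighbour in the type I cluster, was 3.47-fold (2.54 to 4.81) higher from 54 and 166 reads. KRT33B, another hair keratin, lay lower at 70.1 and 62.0 FPKM, and KRT81 at 24.6 and 16.4 FPKM. The simple epithelial keratins KRT8 and KRT18 had folds of 0.919 (0.903 to 0.936) and 0.917 (0.892 to 0.942). KRTAP2-3 and KRTAP2-4, keratin-associated proteins from near-identical genes, had folds of 2.14 (1.90 to 2.41) and 2.18 (1.57 to 3.06).

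Of the remaining 8 genes that were at least 2-fold higher, several have near-identical copies. EIF3CL went from 32 to 295 reads while EIF3C had 127 and 178, and SIK1 went from 36 to 186 reads while SIK1B had 1164 and 812. SERF1B, with 11 and 172 reads, and SMIM11A, with 6 and 74, also have such copies. Their values are uncertain because counting can split reads between copies. TAGLN, an actin-binding protein of contractile cells, was at 30.6 and 62.3 FPKM, a fold of 2.03 (1.93 to 2.14), and LURAP1L at 1.52 and 4.79 FPKM. SLPI rested on 2 and 14 reads and EEF1AKMT4 on 13 and 40. At the edge of the rule, EEF1AKMT4, KRTAP2-4 and TAGLN had log2 ratios of 1.03, 1.03 and 1.01, and ATF3, MAP1LC3B2 and CARS, just outside, 0.97, 0.97 and 0.95. With both libraries scaled to equal totals, 29 of the 38 genes kept their call. Of the 9 that did not, KRTAP2-3, JDP2, SESN2, EEF1AKMT4, NQO1, YARS, KRTAP2-4 and TAGLN had log2 ratios from 0.98 down to 0.91, and SMIM11A no longer reached 1 FPKM.

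The protein-coding gene with the lowest ratio was COL1A1, a chain of type I collagen (chromosome 17, 50183289 to 50201632). It was at 8.86 FPKM in control, 2.09 with DHA, 2.54 with CCCP and 0.425 with both, 4.25-fold (3.78 to 4.78) lower with DHA than in control. Other matrix genes lay lower by less: COL5A1 had a fold of 0.638 (0.614 to 0.663) and COL4A1 0.768 (0.759 to 0.777). Of 23 collagens, laminins, integrins and matrix-linked genes, 19 lay below control, with a median of -0.20. Markers of fibroblasts, which include COL1A1, lay lower too. Of 12 such markers, 5 entered the comparison and all 5 lay below control, their summed level going from 74.6 to 49.0 FPKM, while LUM and THY1 had 0 reads and DCN 0.012 and 0.014 FPKM. Their part in the collagen result was not tested.

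The other 7 genes at least 2-fold lower were P2RY6, a nucleotide receptor, KRT13, DDTL, CGB5, FOXS1, a forkhead factor, IKBKG and TMSB15A, a thymosin. TMSB15A was at 9.75 and 4.15 FPKM, 2.35-fold (1.68 to 3.33) lower. CGB5, DDTL and IKBKG have near-identical copies and rested on 23, 67 and 217 control reads. Just outside the rule stood TSPAN13, a tetraspanin, at 39.3 and 19.6 FPKM, with a log2 ratio of -0.98, then FAM89B at -0.97 and OPN1SW at -0.95. P2RY6, KRT13 and DDTL lay just inside, at -1.01, -1.03 and -1.04. Of better expressed genes, LRRN1, a membrane protein with leucine-rich repeats, was 1.82-fold (1.74 to 1.91) lower, and SLIT3, a guidance ligand, 1.73-fold (1.64 to 1.82) lower. PEG10, an imprinted gene derived from a retrotransposon, was 1.66-fold (1.58 to 1.74) lower.

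Cholesterol synthesis genes were slightly lower, and fatty acid synthesis genes less clearly so. Of 23 cholesterol synthesis genes, 20 were below control, 11 had an interval below 1 and 0 had one above, and the median was -0.15. HMGCS1, which makes the precursor of mevalonate, was at 7.09 and 4.15 FPKM, a fold of 0.585 (0.511 to 0.668). INSIG1, which holds the sterol sensor in the endoplasmic reticulum, had a fold of 0.640 (0.544 to 0.752). These genes take part in sterol synthesis and sensing. Among 18 fatty acid synthesis genes 13 were below control, 8 had an interval below 1 and 3 above, and the median was -0.09. In the same order, the shares of all protein-coding genes were 49.4, 19.9 and 20.4%. ACSS2, which makes acetyl-CoA from acetate, was the highest at a fold of 1.37 (1.20 to 1.57). GPAM, the first enzyme of glycerolipid synthesis, was 1.80-fold (1.68 to 1.92) lower, and the desaturase genes SCD and FADS2 had folds of 0.667 (0.633 to 0.704) and 0.688 (0.648 to 0.729). PLIN2, a lipid droplet coat protein, lay higher, at 49.6 and 72.9 FPKM, a fold of 1.47 (1.42 to 1.53).

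Proliferation genes were a little lower with DHA alone. Of 26 mitosis genes, 24 lay below control and 21 had an interval below 1, with a median of -0.25. KIF20A, a kinesin of cytokinesis, was the lowest at 36 and 22.5 FPKM, a fold of 0.624 (0.586 to 0.664), and the next lowest, BUB1, had a fold of 0.766 (0.718 to 0.817). The proliferation marker MKI67 had a fold of 0.888 (0.857 to 0.921). KIF20A thus stood apart from the rest of the list. The median of the 30 S phase genes was -0.12, 22 were below control, and CDT1, a licensing factor, lay the other way at 1.33-fold (1.20 to 1.47). CDKN1A, which encodes the cell cycle inhibitor p21, had a fold of 1.07 (1.02 to 1.13). Of 19 p53 targets, 13 lay above control, and 7 had an interval above 1 and 1 below. Their median was 0.06, which turned to -0.03 under equal totals, where the median of all genes also lay below 0. GADD45A, a stress-inducible growth arrest gene, was the highest at a fold of 1.59 (1.47 to 1.72).

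Interferon-stimulated genes lay lower as well, with a median of -0.24 over 14 genes, 12 below control and 9 intervals below 1. ISG15, a ubiquitin-like modifier, was the lowest at 7.64 and 4.13 FPKM. Short-lived transcripts, which can follow the handling of cells before lysis, had a median of 0.16, with 16 of 21 members above control, 11 intervals above 1 and 3 below. ATF3 is on that list too, and KLF4, a transcription factor, had a fold of 1.83 (1.54 to 2.19), while EGR1, another, went from 119 to 52 reads. Cytosolic heat shock genes had a median of 0.01 over 16 genes, and hypoxia genes -0.04 over 21.

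The pair of libraries given CCCP shares no library with DHA against control, and served to look up the genes called there. Of the 38 higher protein-coding genes, 29 (76.3%) were also at least 2-fold higher in the combination than with CCCP alone, where 169 of 10767 protein-coding genes (1.57%) were called higher, so that the 29 made up 17.2% of those. The median log2 ratio of the 38 was 1.40 in the first pair and 1.76 in the second, and 28 of the 38 were larger in the second. TRIB3 had log2 ratios of 1.70 and 3.33, DDIT3 1.14 and 3.01, and SESN2 1.06 and 2.68. PSAT1, at 2.63 and 2.81, and PHGDH, at 1.61 and 1.45, differed less between the pairs. The 9 genes not called again were EEF1AKMT4, EIF3CL, KRTAP2-3, KRTAP2-4, SERF1B, SIK1, SLPI, SMIM11A and TAGLN. Of these, 6 are genes with near-identical copies, named above, and TAGLN had a log2 ratio of -0.37 in the second pair.

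Of the 8 lower protein-coding genes, 3 (37.5%) were lower again, COL1A1, KRT13 and TMSB15A, where 310 (2.88%) were called lower, so that the 3 made up 0.968% of those. Over all gene types 64 of the 234 higher genes (27.4%) were called again, against 3.43% of all genes, and 40 of the 210 lower ones (19.0%), against 4.93%. Another 30 and 24 were called in the opposite direction. These shares are not a matched background. Genes that do not code for protein made up 196 of the 234 and 202 of the 210, while 10767 of the 13111 genes behind the shares code for protein. Protein-coding genes supplied only 169 of the 450 higher and 310 of the 646 lower calls in the second pair. Across the 10520 protein-coding genes with at least 100 reads, Pearson's r between the log2 ratios of both pairs was 0.54 and Spearman's rho 0.46, as a description over genes within single libraries. The 7 secreted stress factor genes had medians of 0.23 in the first pair and 1.59 in the second, mitosis genes had -0.25 and -1.17, and endoplasmic reticulum chaperones had -0.26 and -0.02. Ribosomal protein genes had 0.44 and 0.23, with 79 of 82 above the partner library each time, against 51.9% of protein-coding genes in the second pair. No test of these differences between pairs could be made with 1 library per group.

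**Figure D5:**
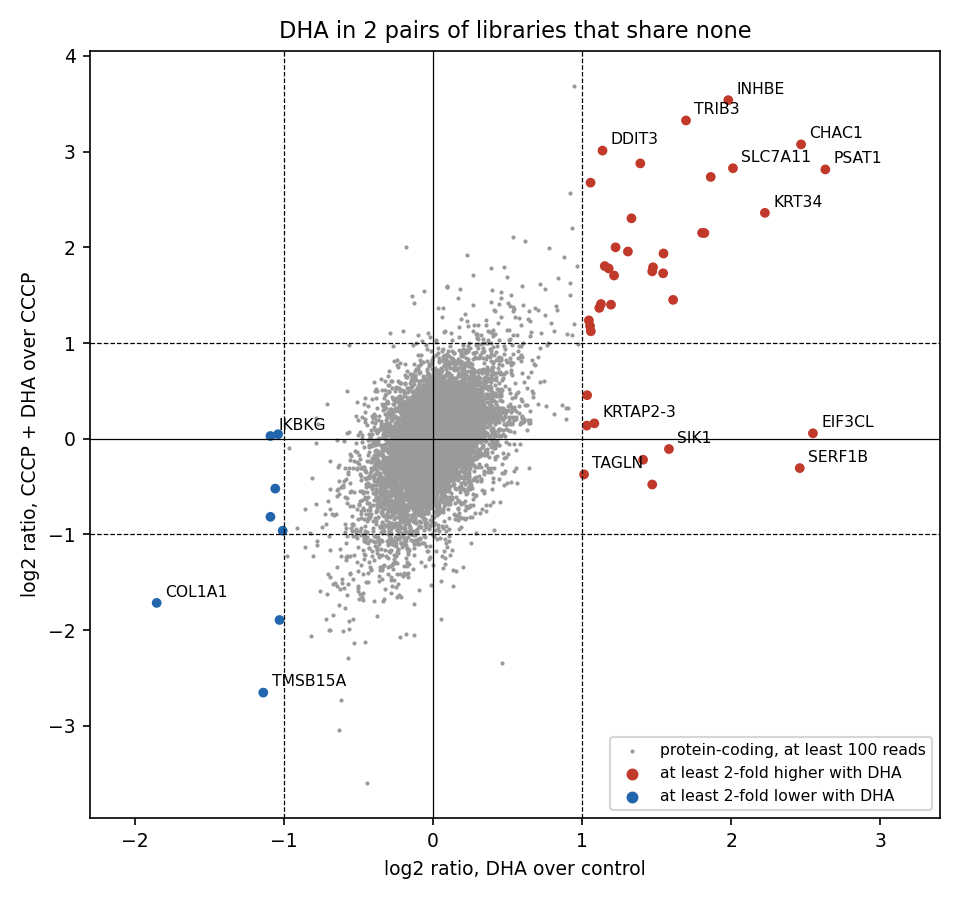
Log2 ratio of DHA over control (horizontal axis) against log2 ratio of the combination over CCCP (vertical axis), with 1 point per protein-coding gene with at least 100 reads (grey) and the called genes of the first pair in red and blue whatever their reads. Of the 38 red points, 29 lie at or above a log2 ratio of 1 on both axes, and the other 9, such as EIF3CL, SERF1B and TAGLN, lie below 0.5 on the vertical axis.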

How the data were processed

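The authors deposited FPKM per gene for each of the 4 libraries, per the file headers. The kit, an Illumina TruSeq RNA kit that took 1 ug of RNA per the labels' protocols, does not mark strand. Aligner, counter and build: not given in the sources used here. The 58735 gene identifiers all matched GENCODE 29 (GRCh38), which gave gene types, coordinates and exon lengths. FPKM times summed exon length came out as whole reads for 100% of values in each library (tolerance 0.01 reads), and the reads recovered in this way gave depth and exact 95% Clopper-Pearson intervals of the FPKM ratio. Genes with at least 1 FPKM in either library entered, ratios were taken on log2(FPKM + 0.5), and a gene was called at 2-fold. With 1 library per group there was no test.

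The members and the 44 gene lists were chosen with earlier results of these data known, and 9 sets by gene name (ribosomal, mitochondrial ribosomal and elongation factor genes among them) after the values were seen. At a mean level of 5 FPKM or more, named genes were the 25 protein-coding genes with the highest and the 20 with the lowest ratios, and 8 of each among other types, besides list members, except that a few genes are left out here. The genes at the edge of the rule, called genes on no list and copy genes were named after their values were seen. Tools were scipy 1.17.1, pandas 2.3.3, numpy 2.4.6 and matplotlib 3.10.9 under Python 3.11.15, and the ratio and interval steps were tested on simulated data. Alternatives were pseudocounts of 0.1 and 1, other filters, 2 rescalings, protein-coding genes alone, rules of 1.5-fold and 4-fold, a minimum of 100 reads and, added after seeing the data, removal of the exon-length trend.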

Additional observations from a re-analysis of the deposited data

Results flagged for a closer look

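The transcribed processed pseudogene AC004057.1 and the small nucleolar RNA gene SNORD83A lay on opposite sides in the pairs that differ by DHA. AC004057.1 had a log2 ratio of 2.52 between DHA and control and of -2.14 between the combination and CCCP, from 197 reads in control, 1020 with DHA, 1243 with CCCP and 289 with both. SNORD83A had 2.09 and -1.07, from 3 reads in control, 14 with DHA, 9 with CCCP and 4 with both. Its fold in the second pair, 0.430 (0.0968 to 1.54), had an interval that included 1, so its direction there is uncertain. Both genes rest on 1 library per group, and the difference between the pairs was not tested.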

How the results depend on the processing

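Of the 234 higher and 210 lower genes, the counts were 456 and 431 without a filter, 44 and 7 at a mean of at least 5 FPKM, and 38 and 8 for protein-coding genes alone. They were 529 and 461 at 1.5-fold, 45 and 53 at 4-fold, and 51 and 6 with at least 100 reads. In the same order, the 64 genes higher in both pairs became 97, 22, 29, 179, 7 and 30, and the 40 lower in both became 71, 3, 3, 160, 6 and 3. The latter were 78 with a pseudocount of 0.1 FPKM and 22 with 1. Scaling to equal FPKM totals, which put the median of all genes at -0.09, turned the medians of autophagy genes (from 0.06 to -0.037) and mitochondrially encoded mRNAs (from 0.10 to -0.0015). Over all alternatives 13 of 52 list medians changed sign under at least 1, among them serine and one-carbon genes, at 0.53 where a mean of 5 FPKM was required. The 61 genes picked for the highest and lowest ratios kept their sign in all 472 values, with shifts of at most 0.24. The ratio nearest 0 among them was -0.67, for KIF20A, so shifts of that size could not change a sign. The statement does not cover list members with smaller ratios. No paired analysis was possible because each group had 1 library. Doses, times and spread between cultures are unknown, so that a difference of this size between 2 control cultures cannot be judged. Depth limits low genes most: 3 reads, the limit that a count of 0 allows, stand for 0.0384 FPKM at the median exon length with DHA.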

Other observations

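Outside protein-coding genes, the highest ratio at a mean level of 5 FPKM or more was that of RN7SL2, the RNA of the signal recognition particle, at 26.5 FPKM in control and 165 with DHA. It lay the other way in the second pair, at 152 FPKM with CCCP and 100 with both. Processed pseudogenes of ribosomal proteins were also among the 8 highest, such as RPL7AP6 at 19.8 and 63.5 FPKM and RPS10P3 at 5.41 and 14.2 FPKM. The lowest of these genes, the mitochondrial tRNA gene MT-TE, rested on 12 and 2 reads, and LINC01638, at 10.1 and 5.00 FPKM, was lower again with both compounds, at 1.19 FPKM against 7.92 with CCCP.

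Tubulin genes, a set chosen by name after the values were seen, had a median log2 ratio of -0.30, with 7 of 8 below control. The median of 11 NF-kB and inflammation genes was 0.25, and 9 of them lay above control. PTX3, a secreted pattern recognition protein, was at 1.19 and 2.75 FPKM, a fold of 2.31 (1.60 to 3.38). ANKRD1, a target of YAP, was 1.88-fold (1.74 to 2.04) higher, while CTGF, another, had a fold of 0.925 (0.901 to 0.949).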
